A study of Mus musculus with 8 samples.

Results

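RAB proteins are small GTPases that act as switches of membrane traffic inside cells. Bound to GTP they sit on a membrane and recruit effector proteins that move, tether or fuse vesicles. Exchange factors load them with GTP, GTPase-activating proteins turn them off, and prenylation anchors them to membranes. In blood cells they are known for carrying granules to the surface and for phagocytosis. The RAB genes described here were the genes whose platform symbol is Rab followed by 1 or 2 digits and at most 1 letter and 1 more digit. They numbered 59 of the 18193 genes on the array, read by 132 probe sets. Genes with longer symbols such as Rab3gap1 or Rab11fip1 were not members, and some of them appear below as regulators and effectors. Where a gene had several probe sets, the brightest on average across the 8 arrays stood for it.

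The samples were 4 arrays of L-GMPs (replicates A to D), from leukaemic mice with the genotype label HoxA9+Meis1 AML, and 4 arrays of GMPs (replicates A to D), from mice labelled Normal. Both were bone marrow cells gated as GMPs, the granulocyte-macrophage progenitors that give rise to neutrophils and monocytes, by flow cytometry. The labels give no age, strain, sort markers or way of inducing the leukaemia, and they do not say whether arrays of a group came from separate mice. P-values therefore measure the spread between these arrays, which may be technical. Values are log2 RMA intensities, where a difference of 1 is a factor of 2.

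The arrays correlated at 0.983 to 0.994 within groups and at 0.967 to 0.974 between them. All 11 measured progenitor markers lay above the lower quartile of the arrays in both groups, with summed intensities of 29092 to 32721 in L-GMPs and 39829 to 41562 in GMPs. Of these, 4 fell and 0 rose, and Elane fell by 1.75 and Kit fell by 0.96. Among other cell types, 7 of 10 measured monocyte and macrophage markers rose and 1 fell, with sums of 12160 to 17101 in L-GMPs and 6855 to 7800 in GMPs. Of 6 erythroid markers 2 fell and 0 rose, and 4 did not pass, with a median change of -0.36. Car2 fell by 4.32 and Car1 fell by 1.80. The sums were 132 to 162 in L-GMPs and 554 to 829 in GMPs. Of 9 mature neutrophil markers 2 fell and 0 rose at adjusted p under 0.05 (limma), and 7 did not pass. S100a8 fell by 3.82 and Cxcr2 fell by 1.37. Positive changes were seen for 2 markers, up to 1.23, and in 1 marker all L-GMP arrays lay above the GMP arrays. The neutrophil sums overlapped, with 378 to 1627 in L-GMPs and 899 to 4327 in GMPs. The part of these cell types in the results on RAB genes was not tested. GMP replicate D had a 3' to 5' difference of the Gapdh controls, a sign of RNA breakdown, of 2.74, against 1.24 to 1.55 in L-GMPs and 1.46 to 1.76 on the other GMP arrays.

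In L-GMPs 7 RAB genes fell and 5 rose relative to GMPs, and 47 did not pass the threshold of adjusted p under 0.05 (limma, Benjamini-Hochberg over all genes). The 12 that passed were 20.3% of the members, against 12.1% of all genes. By direction, 4.78% of all genes were higher and 7.27% lower. The falls were the larger changes: Rab38 fell by 5.14, Rab4a and Rab37 by 2.67 each, Rab27b by 2.24 and Rab17 by 1.95, all on the log2 scale. Rab20 and Rab13 fell by 0.93 and 0.97. The rises, in Rab3a, Rab4b, Rab7b, Rab36 and Rab32, were between 0.38 and 0.73. The median change of the members was 0.03, beside 0.01 over all genes. The split depends on scaling: with each array centred on its median, the median of all genes moved to 0.15 and that of the members to 0.17. RAB genes then numbered 9 higher and 6 lower, and of all called genes 70.1% were higher, against 39.7% before. The groups did not overlap in 16 members (27.1%), 8 above and 8 below, against 18.2% of all genes.

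**Figure D1:**
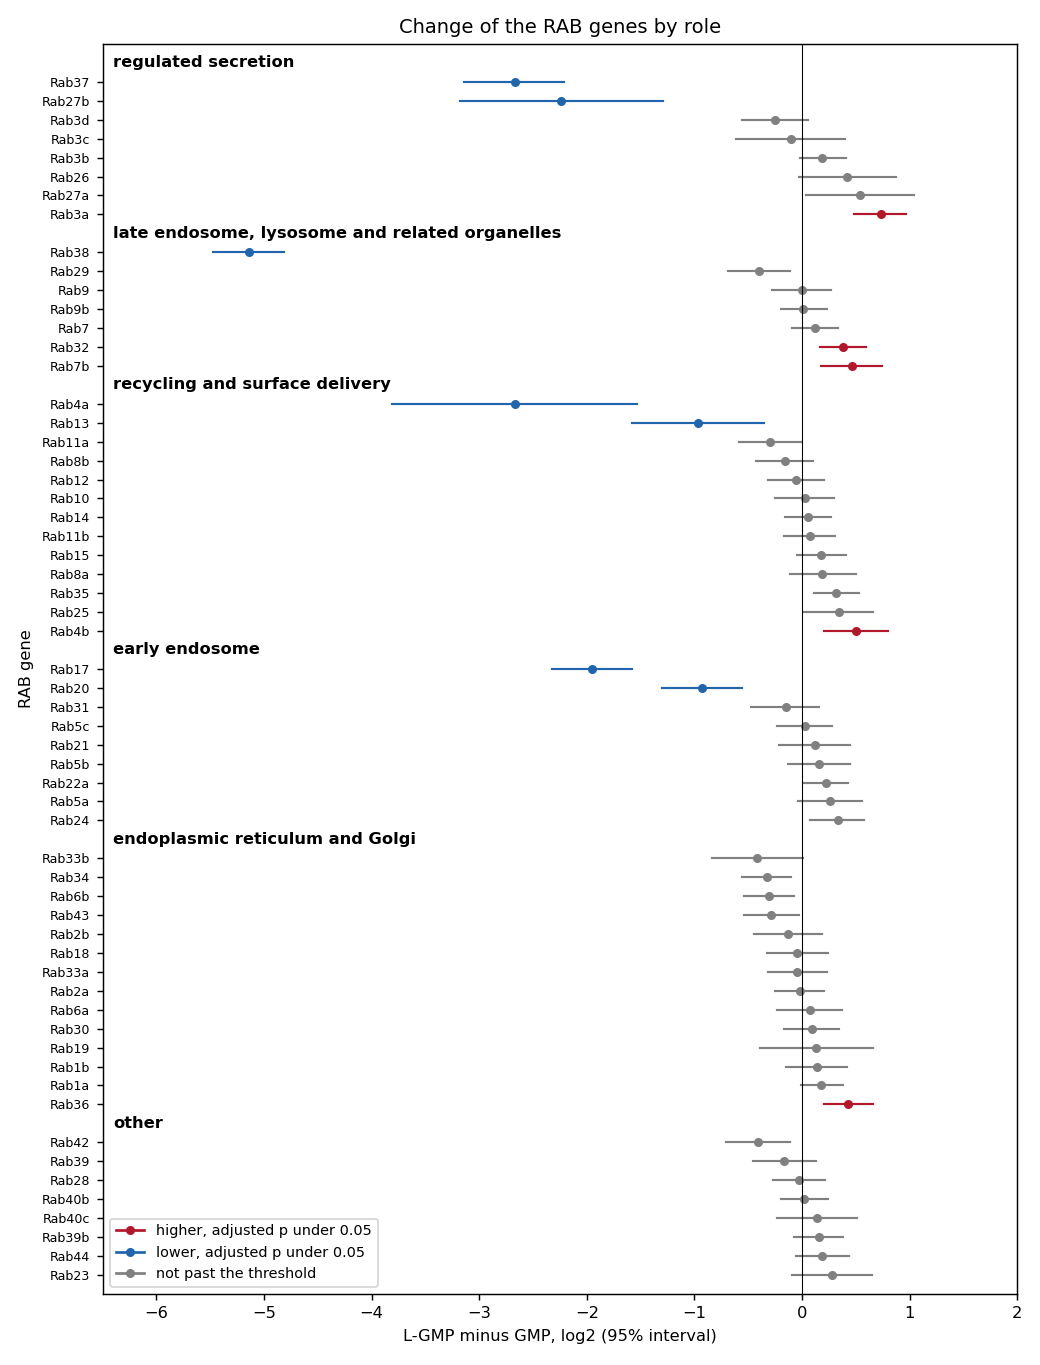
Difference between L-GMPs and GMPs (log2, points, n = 4 arrays each) with its 95% interval from limma (lines) for the 59 RAB genes, grouped by role. Rab38, Rab37, Rab4a, Rab27b and Rab17 lie far to the left at -5.14 to -1.95, while the changes of the 47 grey genes lie between -0.42 and 0.54.

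The calls differed in firmness. The falls of Rab38, Rab37, Rab4a, Rab27b, Rab17 and Rab20 and the rise of Rab3a held under each of the 17 alternative settings in which the gene was tested. The falls of Rab4a, Rab27b, Rab17 and Rab20 were not tested after the dimmest 50% of genes had been left out. The other 5 calls (Rab13, Rab4b, Rab7b, Rab32 and Rab36) were lost under some settings. With both GMP replicate D and L-GMP replicate B left out, the falls numbered 7 and the rises 2, Rab3a and Rab25. Without GMP replicate C the rise of Rab3a was the only one left.

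The RAB proteins of regulated secretion bring granules to the plasma membrane. Of 8 measured, 2 fell and 1 rose (37.5%, against 12.1% of all genes). Rab37, first described on secretory granules of mast cells, stood at 4.91, 4.97, 4.82 and 4.91 in L-GMP replicates A to D, against 7.29, 7.65, 7.11 and 8.25 in GMP replicates A to D. The L-GMP arrays lay close together, and each was below all GMP arrays. Rab37 fell by 2.67 (SE 0.21, 6.38-fold, adjusted p = 1.56e-05, limma). Its second probe set fell too, by 2.16 (adjusted p = 5.93e-05 in the limma fit of every probe set).

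Rab27b, which acts in granule release by platelets and mast cells, stood at 3.44, 3.71, 3.20 and 3.15 in L-GMPs, against 6.14, 4.27, 5.29 and 6.74 in GMPs. The groups did not overlap, but the GMP arrays were spread widely, with replicate B lowest and replicate D highest. Rab27b fell by 2.24 (SE 0.43, adjusted p = 0.00688, limma). Its L-GMP mean of 3.37 lay under the arrays' lower quartiles (3.65 to 3.75), where signal is close to background, and this limits what the size of the fall can show. Of its 3 other probe sets, 1 fell, by 1.26, and the others changed by -0.34 and -0.29 without passing. The mean of the 4 probe sets fell by 1.03. Without GMP replicate D, the array with the high Gapdh difference, Rab27b fell by 1.86 (adjusted p = 0.0143, limma) and Rab37 fell by 2.45.

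Some markers of mast cells, in which both genes are known, and of platelets, in which Rab27b is known, fell as well. Of 12 eosinophil, basophil and mast cell markers 9 fell and 0 rose, with summed intensities of 746 to 1617 in L-GMPs and 4585 to 11147 in GMPs. Of 10 megakaryocyte and platelet markers 4 fell and 0 rose, with sums of 265 to 317 in L-GMPs and 541 to 2094 in GMPs. The lowest GMP sum of the platelet list was in replicate B (541), where Rab27b was also lowest, but the highest was in replicate A (2094) and Rab27b was highest in replicate D. The eosinophil, basophil and mast cell sum went the other way, with its highest GMP value (11147) in replicate B and 4617 in replicate D. Rab37 was highest in GMP replicate D (8.25) and lowest in GMP replicate C (7.11), where that sum was 4585. Of the platelet list, Gp6 was below the lower quartile of the arrays in both groups. In sorted populations fewer cells of a type and less RNA per cell cannot be told apart, and the part of these cells in the falls was not tested.

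Rab27a, the closest relative of Rab27b and the gene of the ashen coat colour mutant, had 10.27, 10.52, 10.24 and 10.08 in L-GMPs, against 10.36, 9.48, 9.93 and 9.17 in GMPs. The groups overlapped through GMP replicate A. Its change of 0.54 did not pass (SE 0.23, adjusted p = 0.156, limma), although it did without GMP replicate A, for the mean of its 4 probe sets and for another of its probe sets, which rose by 0.62 (adjusted p = 0.0126 among all probe sets). Rab3a, best known from synaptic vesicles, had 7.04, 6.70, 6.74 and 6.64 in L-GMPs, against 6.04, 6.10, 6.10 and 5.99 in GMPs. The GMP arrays lay close together and all below the L-GMP arrays. Rab3a rose by 0.73 (SE 0.11, 1.65-fold, adjusted p = 0.00176, limma). The identifier of this probe set ends in _x_at, the maker's mark for probes that can bind unrelated transcripts, and the other Rab3a probe set changed by 0.37 (adjusted p = 0.0783). The remaining secretory members, Rab3b, Rab3c, Rab3d and Rab26, did not pass, with changes of 0.19, -0.10, -0.25 and 0.42.

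Late endosomes and lysosomes receive material for breakdown, and lysosome-related organelles such as melanosomes and platelet dense granules form from the same route. Of 7 RAB genes of this route, 1 fell and 2 rose (42.9%, against 12.1% of all genes). Rab38, which serves lysosome-related organelles and is mutated in the chocolate mouse, showed the largest change of all members. It stood at 3.98, 4.31, 3.96 and 4.43 in L-GMPs, against 9.54, 9.32, 8.99 and 9.39 in GMPs. The groups were separated by more than the spread within either, which was 0.24 in L-GMPs and 0.23 in GMPs (SD, n = 4 each). Rab38 fell by 5.14 (SE 0.15, 35.2-fold, adjusted p = 9.89e-09, limma), with a 95% interval of -5.47 to -4.81. Its second probe set, also marked _x_at, fell by 4.48 (adjusted p = 6.84e-07 in the limma fit of every probe set). The L-GMP mean of that set, 3.72, lay within the range of the arrays' lower quartiles (3.65 to 3.75), which limits what that size can show.

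Rab32, the closest relative of Rab38 and a partner in melanosome formation, had 8.78, 8.60, 8.71 and 8.60 in L-GMPs, against 8.20, 8.38, 8.31 and 8.30 in GMPs. All L-GMP arrays were higher, and it rose by 0.38 (SE 0.09, adjusted p = 0.0266, limma). Leaving out any of 4 arrays ended the call: L-GMP A, L-GMP C, GMP C and GMP D, with adjusted p between 0.0616 and 0.0789. A fit with the replicate letter as a block ended it too (adjusted p = 0.0814). Rab7b, which links late endosomes to the Golgi, had 9.14, 9.23, 9.26 and 9.63 in L-GMPs and 8.87, 8.99, 8.69 and 8.87 in GMPs. It rose by 0.46 (SE 0.13, adjusted p = 0.04, limma), a call lost without any 1 array other than L-GMP replicate A or B. Rab7, the main RAB of late endosomes, changed by 0.12, and its groups overlapped, as did those of Rab9 (change -0.00), Rab9b (0.01) and Rab29 (-0.40, adjusted p = 0.0726).

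**Figure D2:**
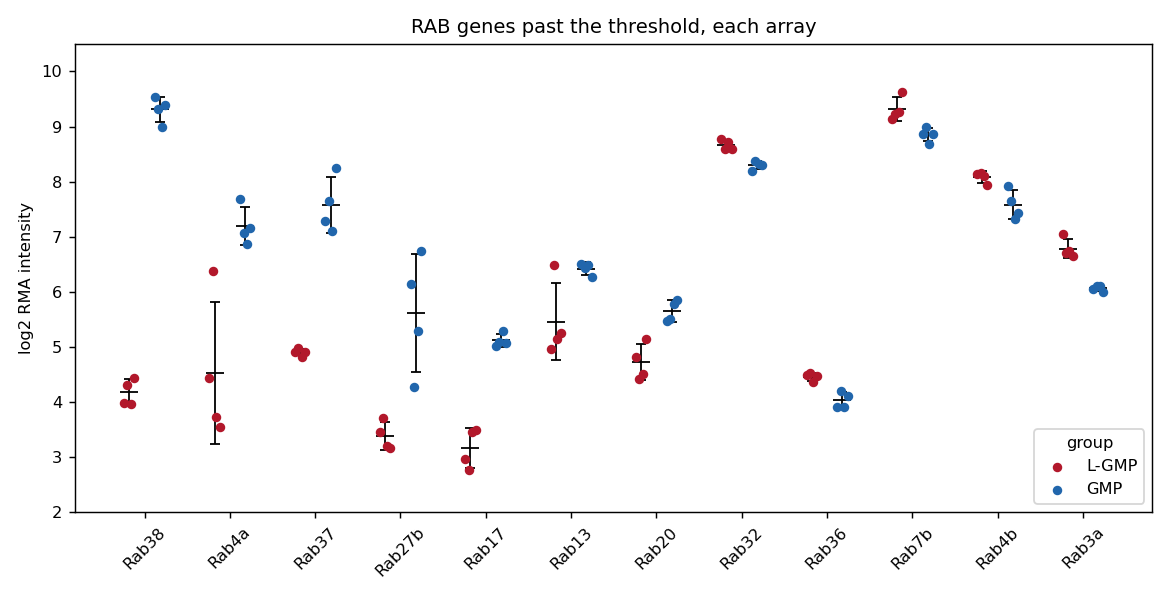
Log2 RMA intensity on each array of the 12 RAB genes past the threshold, L-GMPs in red and GMPs in blue, ordered by their change; bars are mean and SD (n = 4 arrays each). Red and blue points are separate in each gene except Rab13, where L-GMP replicate B (6.48) lies among the GMP arrays, and that array also stands apart in Rab4a.

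Recycling RABs return receptors from endosomes to the surface. Of 13 measured, 2 fell and 1 rose (23.1%, against 12.1% of all genes). Rab4a, which drives fast recycling from early endosomes, had 4.43, 6.38, 3.73 and 3.54 in L-GMPs, against 7.68, 7.07, 6.86 and 7.16 in GMPs. All L-GMP arrays were below all GMP arrays, and L-GMP replicate B was the nearest to them. Rab4a fell by 2.67 (SE 0.51, 6.38-fold, adjusted p = 0.00731, limma). Without L-GMP replicate B it fell by 3.29 (adjusted p = 1.01e-05, limma). Leaving out the L-GMP array nearest the GMPs enlarges a fall by construction, so this adds no support. Without any other 1 array the adjusted p was 0.018 to 0.0249 (limma). The second Rab4a probe set fell by 1.78 (adjusted p = 0.0081 in the limma fit of every probe set). Its L-GMP mean of 3.59 lay under the arrays' lower quartiles (3.65 to 3.75). The brightest set was near them in L-GMP replicates C and D (3.73 and 3.54). This limits what the size of either fall can show.

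Rab13, a RAB of epithelial junctions and surface delivery, was low in the same arrays, with 4.96, 6.48, 5.13 and 5.25 in L-GMPs, against 6.51, 6.43, 6.48 and 6.26 in GMPs. L-GMP replicate B was within the range of the GMPs. Rab13 fell by 0.97 (SE 0.28, adjusted p = 0.0477, limma), a call lost without any 1 array other than L-GMP replicate B. Without that array, the L-GMP array nearest the GMPs, it fell by 1.31 (adjusted p = 5.19e-05, limma), a gain that follows from the choice of array. Among L-GMPs, replicate B also had the highest sum of the eosinophil, basophil and mast cell markers (1617, against 746 to 1200 on the others). That excess was in Cpa3 (9.05, against 3.46 to 6.75 on the other L-GMP arrays) and Hdc (8.23, against 6.62 to 6.76), while 5 of the 12 markers, Ms4a2, Fcer1a and Prg2 among them, were lowest in replicate B. The part of those cells in the Rab4a and Rab13 values was not tested.

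Rab4b, the close relative of Rab4a, went the other way, with 8.14, 8.16, 8.10 and 7.93 in L-GMPs against 7.92, 7.64, 7.32 and 7.43 in GMPs. The groups only just failed to overlap, at L-GMP replicate D and GMP replicate A. It rose by 0.50 (SE 0.14, adjusted p = 0.0382, limma), a call lost without any 1 array other than L-GMP replicate D or GMP replicate A. Rab35, another RAB of fast recycling, was just short of the threshold, with a change of 0.32 (adjusted p = 0.0504, limma). The groups of Rab35 did not overlap, with 8.42 to 8.67 in L-GMPs and 8.19 to 8.28 in GMPs. Rab11a and Rab11b, the RABs of the recycling endosome, changed by -0.30 and 0.07, and Rab8a, Rab8b, Rab10 and Rab14 by 0.19, -0.16, 0.03 and 0.06. None of these passed by its brightest probe set, and the groups overlapped there. Dimmer probe sets of Rab11a (-0.83, adjusted p = 0.0143) and Rab14 (0.55, adjusted p = 0.0347) passed in the limma fit of every probe set.

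Early endosomes take up material from the surface. Of 9 RABs of early endosomes and phagosomes, 2 fell and 0 rose (22.2%, against 12.1% of all genes). An unadjusted limma p under 0.05 was found for 4 of them, and for 26.2% of all genes. Rab17, known from the traffic of polarised epithelia, had 2.96, 2.76, 3.44 and 3.49 in L-GMPs, against 5.02, 5.08, 5.29 and 5.06 in GMPs. The groups were well apart, and it fell by 1.95 (SE 0.17, adjusted p = 3.02e-05, limma). The L-GMP mean of 3.16 was below the lower quartile of every array, which limits what that size can show. The mean of its probe sets fell by 0.91 (adjusted p = 0.000599, limma), and the second Rab17 probe set, dim in both groups (3.48 in L-GMPs, 3.36 in GMPs), changed by 0.12. Rab20, a RAB of phagosome maturation, had 4.81, 4.42, 4.50 and 5.14 in L-GMPs, against 5.46, 5.50, 5.78 and 5.85 in GMPs. It fell by 0.93 (SE 0.17, adjusted p = 0.00489, limma). The core RABs of early endosome fusion, Rab5a, Rab5b and Rab5c, changed by 0.26, 0.16 and 0.03, and Rab21, Rab22a, Rab24 and Rab31 by 0.12, 0.22, 0.33 and -0.15, none past the threshold.

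The RABs of the endoplasmic reticulum and the Golgi carry newly made proteins. Of 14 measured, 1 rose and 0 fell (7.14%, against 12.1% of all genes), and 4 had an unadjusted limma p under 0.05. The groups did not overlap in 4 (28.6%, against 18.2% of all genes). Rab36, a relative of Rab34, rose by 0.43 (SE 0.10, adjusted p = 0.0237, limma), with 4.48, 4.52, 4.35 and 4.47 in L-GMPs and 3.91, 4.20, 3.90 and 4.11 in GMPs. It is a dim probe set, its 2 others changed by 0.13 and 0.20, and the mean of the 3 did not pass (0.25, adjusted p = 0.0751). Rab1a and Rab1b, which act between the endoplasmic reticulum and the Golgi, changed by 0.18 and 0.14, and Rab2a and Rab6a by -0.02 and 0.07. Of the 8 members with other roles 0 passed, and 1 had an unadjusted limma p under 0.05. They include Rab44, a large RAB of bone marrow cells, with 10.79, 10.39, 10.71 and 10.60 in L-GMPs and 10.53, 10.32, 10.51 and 10.36 in GMPs (change 0.19, adjusted p = 0.323). They also include Rab23, a negative regulator of Hedgehog signalling, which changed by 0.28.

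For the 47 genes that did not pass, the intervals bound the change of the brightest probe set only. The 95% interval of 46 of them lay within a factor of 2 in either direction, and that of 37 within a factor of 1.5. Rab27a was the exception to the wider bound, with an interval of 0.04 to 1.04. Dimmer probe sets of some other genes also reached past that bound. They include ones of Rab2b (interval -1.41 to -0.47), Rab11a (-1.22 to -0.43) and Rab1a (0.27 to 1.27). Of these 47, 11 had an unadjusted limma p under 0.05 (23.4%, against 16.1% of the 16000 genes not past the threshold). For 5 genes, Rab30, Rab33a, Rab39, Rab39b and Rab9b, both group means were below the lower quartile of every array, so a change at lower levels was not detectable. Of the 12 members whose probe set was brighter than that of 90% of genes, 0 passed, and 1 had an unadjusted limma p under 0.05. Among all 1820 genes that bright, 8.9% passed. Brightness depends on the probes and does not rank the genes by amount.

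Of the 38 members with several probe sets, 8 had a dimmer probe set past the threshold in the fit of every probe set. In 4 of them, Rab38, Rab37, Rab4a and Rab27b, it fell as the brightest did. In the others the brightest had not passed: dimmer probe sets fell for Rab11a (-0.83) and Rab2b (-0.94) and rose for Rab27a (0.62) and Rab14 (0.55). These were 8 of 73 dimmer probe sets of the members. The share among dimmer probe sets of all genes was not computed, so the count is no result on RAB genes. The positions that the probe sets read on these transcripts were not used here.

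**Figure D3:**
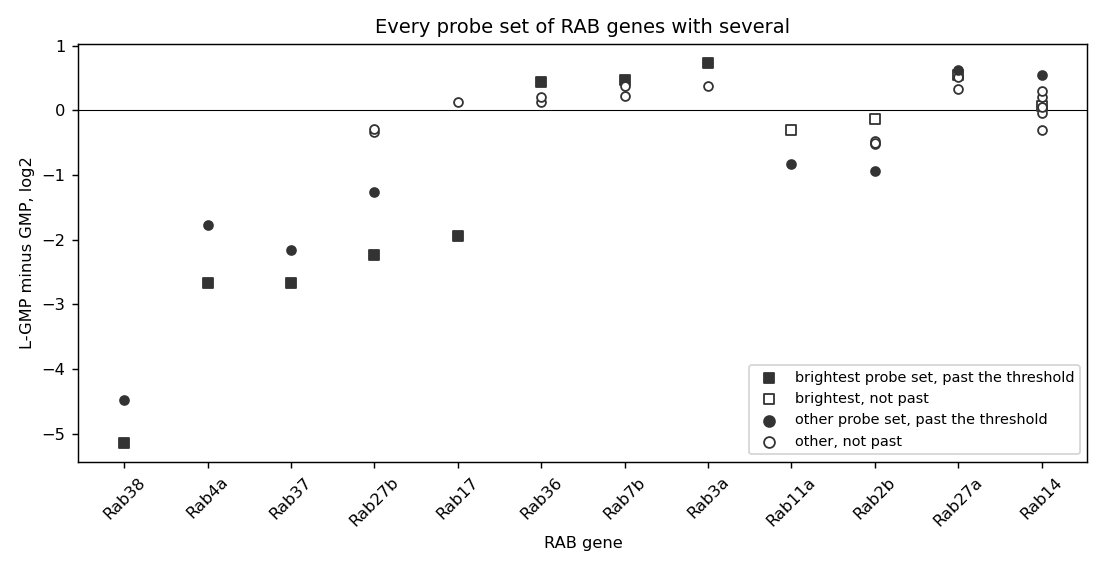
Difference between L-GMPs and GMPs (log2) of every probe set of the 8 changed RAB genes with several probe sets, and of 4 genes in which a dimmer probe set alone passed. Squares are the brightest probe set of a gene, circles the others, and filled symbols passed the threshold; both Rab38 symbols lie below -4, whereas the Rab17 symbols lie at -1.95 and 0.12.

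Mammals hold many RABs as closely related copies, and 17 pairs of relatives were compared by the difference of the 2 genes on each array. The groups did not overlap in 5 pairs, which gave the smallest p the design allows (0.0286, exact permutation test, 2-sided, 4 arrays against 4). After adjustment over the 17 pairs the value was 0.0971, so 0 pairs passed, and 5 had an unadjusted p under 0.05. With only 5 pairs at the smallest p, no difference of any size could pass. The 0 therefore does not show that relatives changed alike. The change of Rab38 minus that of Rab32 was -5.52, and that of Rab27b minus Rab27a was -2.78, a size limited by the dim L-GMP values of Rab27b. The change of Rab4b minus that of Rab4a was 3.17, of Rab3d minus Rab3a -0.98, and of Rab8b minus Rab8a -0.36. The low L-GMP values of Rab4a limit what the size of 3.17 can show. For the mean of the probe sets, Rab8b minus Rab8a came to -0.17 (exact p = 0.2). In the other 12 pairs, among them Rab5b and Rab5a, Rab1b and Rab1a and Rab11b and Rab11a, the difference lay between -0.38 and 0.37 (exact p of 0.0571 or more).

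**Figure D4:**
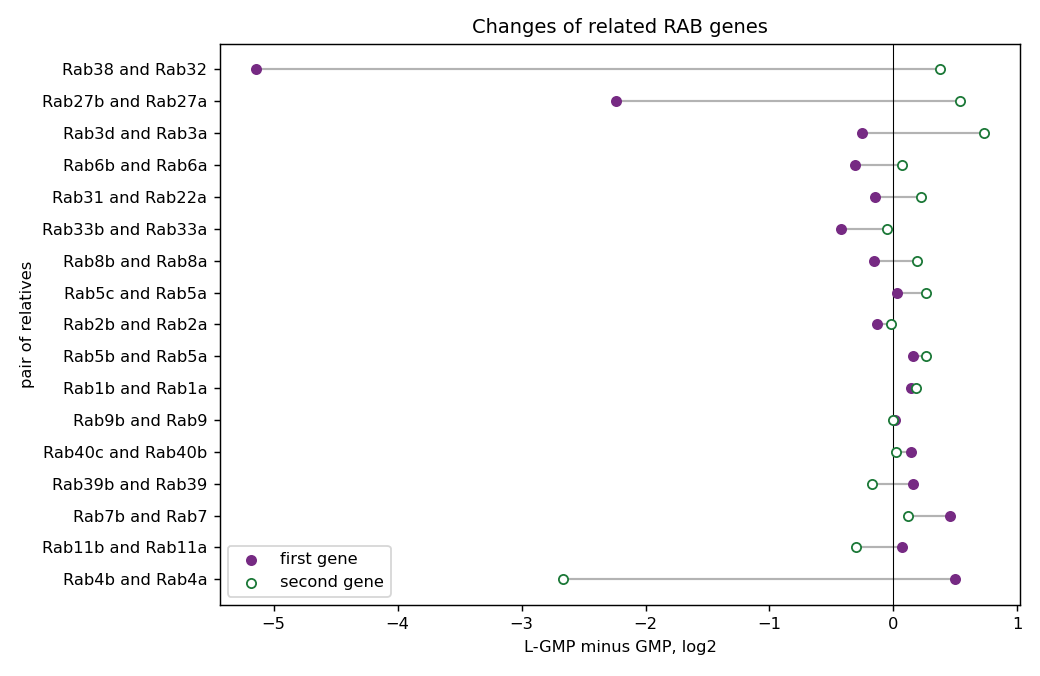
Difference between L-GMPs and GMPs (log2, n = 4 arrays each) of the first gene (filled) and the second gene (open) of 17 pairs of related RAB genes. The points of Rab38 and Rab32 (-5.14 and 0.38), Rab27b and Rab27a (-2.24 and 0.54) and Rab4b and Rab4a (0.50 and -2.67) lie far apart, and those of most other pairs lie close together.

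RefSeq promoter windows of GRCm38.p6, 250 bases before to 50 after a transcript start, were listed for 48 of the 59 genes, 6 of the 12 changed ones among them. Rab27b, Rab36, Rab37, Rab38, Rab4a and Rab7b were not listed. The windows were searched on both strands for TGACAG, the core bound by MEIS factors, and CACGTG, the E-box bound by MYC factors, which do not overlap here. TGACAG was in 28.3% of 60 RAB windows and 19.2% of all 32851 windows, and CACGTG in 10% and 7.15%. The 17 RAB windows with TGACAG came from 13 genes. Some windows of the same gene overlap, as for Rab43 and Rab7, so they are not independent and the shares were not compared by a test. Among the 6 changed genes listed, TGACAG was found for Rab17, Rab32 and Rab3a, and CACGTG for Rab20. The Rab3a match lies in its second window, which is not shown. The RAB windows held a median of 19.5 CG pairs, against 7 in all windows, and that of Rab17 held 5. The first listed windows of the genes with the largest fall and the largest rise among those listed, Rab17 and Rab3a, are shown with matches to either motif in capitals. That of Rab17 is chr1:90967618-90967917 on the minus strand, and that of Rab3a is chr8:70754453-70754752 on the plus strand, without a match.
Rab17: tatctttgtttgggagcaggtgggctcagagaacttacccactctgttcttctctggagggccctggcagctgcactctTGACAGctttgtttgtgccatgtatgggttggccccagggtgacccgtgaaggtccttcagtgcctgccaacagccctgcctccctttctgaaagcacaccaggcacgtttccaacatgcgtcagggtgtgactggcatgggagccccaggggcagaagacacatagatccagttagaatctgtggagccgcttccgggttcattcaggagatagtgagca
Rab3a: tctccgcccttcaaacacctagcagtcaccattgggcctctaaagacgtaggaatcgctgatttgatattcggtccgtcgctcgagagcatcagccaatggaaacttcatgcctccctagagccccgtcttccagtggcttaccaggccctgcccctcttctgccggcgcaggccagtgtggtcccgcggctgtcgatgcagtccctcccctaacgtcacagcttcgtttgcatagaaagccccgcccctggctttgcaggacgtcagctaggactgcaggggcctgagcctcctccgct

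Other genes run the RAB cycle. Of 142 measured genes in 5 lists, 5 rose and 17 fell (15.5%, against 12.1% of all genes), with a median change of -0.02. The median absolute change was 0.19, the same as that of the RAB genes and close to the 0.17 of all genes. Neither count was stable: with arrays centred on their median 12 were higher and 8 lower, and with 1 array left out 0 to 7 were higher and 5 to 14 lower. Among 7 genes of prenylation and membrane cycling, 1 rose and 1 fell (28.6%). Chm, the escort protein that presents RABs for prenylation, had 5.18, 5.05, 5.24 and 5.44 in L-GMPs, against 5.80, 5.93, 5.67 and 5.94 in GMPs, and fell by 0.61 (adjusted p = 0.00629, limma). Rabggta, a subunit of the prenylating enzyme, rose by 0.34 (adjusted p = 0.0325). Gdi2, which extracts RABs from membranes, changed by -0.02.

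Of 34 exchange factors 1 rose and 5 fell (17.6%, against 12.1% of all genes). Ankrd27, an exchange factor for RAB21 that also binds RAB32 and RAB38, had 10.17, 9.70, 9.86 and 10.24 in L-GMPs, against 10.79, 10.64, 10.59 and 10.69 in GMPs. The groups did not overlap, and Ankrd27 fell by 0.68 (SE 0.13, adjusted p = 0.00722, limma). Dennd1b, Mon1b and Dennd6a fell by 0.74, 0.45 and 0.37, Rpgr by 0.82, and Ric1 rose by 0.37. Hps1 and Hps4, the subunits of the exchange factor for RAB32 and RAB38, changed by -0.00 and 0.02 without passing.

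Of 40 GTPase-activating proteins 2 rose and 7 fell (22.5%, against 12.1% of all genes). Tbc1d8b fell by 0.72 (SE 0.12, adjusted p = 0.00338, limma), and Tbc1d10c, Tbc1d16, Usp6nl and Tbck fell by 1.11, 0.97, 0.48 and 0.47. Tbc1d10c, whose protein acts on RAB35, overlapped between groups through L-GMP replicate B (6.49, against 4.81 to 5.54 on the other L-GMP arrays and 6.46 to 6.81 in GMPs). Evi5, which acts on RAB11, rose by 0.61.

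Of 43 effectors 0 rose and 2 fell (4.65%, against 12.1% of all genes). An unadjusted limma p under 0.05 was found for 10 of them, beside 26.2% of all genes. Unc13d, which works with RAB27 in granule release, fell by 0.66 (SE 0.14, adjusted p = 0.0108, limma) and Mical1 by 0.56. Of 21 genes of the complexes that build lysosome-related organelles 2 rose and 2 fell (19%, against 12.1% of all genes). Hps5 rose by 0.67, and Dtnbp1 and Bloc1s5, subunits of another of these complexes, fell by 0.67 and 0.55. Rabggta, counted there too, was the other rise. Of the 22 regulator calls, those of Ankrd27 and Tbc1d8b held under each alternative that tested them.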

How the data were processed

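RNA of 4 L-GMP and 4 GMP samples was hybridised to 3' Affymetrix mouse arrays. The deposited values are intensities that the authors made with RMA, per the submitters' processing notes (version not given), and they lie on a linear scale from 3.54 to 29746.73. RMA corrects background, normalizes between arrays and summarises probes, so a shift common to most genes would be largely removed. The array medians still differed between the groups, as given below. The labels' protocol names a whole-transcript labelling assay, which differs from the array type. Log2 was taken here. Of 45101 probe sets, 64 controls were left out, and 34945 had 1 symbol in the platform annotation, 932 several and 9160 none. The 18193 genes were fitted together with limma 3.58.1 in R 4.3.3 (lmFit and eBayes, 2 groups, no covariate), with Benjamini-Hochberg adjustment over all of them and a threshold of 0.05. Pairs of relatives were compared by an exact permutation test over 70 splits of the arrays.

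The number of arrays limits the precision. Array medians were 5.24 to 5.3 in L-GMPs and 5.33 to 5.49 in GMPs, so each L-GMP median was below each GMP median. Whether this offset is technical was not tested. Lower quartiles were 3.65 to 3.75. Same-lettered arrays of the 2 groups showed correlations of deviations from -0.07 to 0.11, so the letters were not used as pairs. The members, roles, pairs and lists were chosen with earlier results of these data known. Named were every RAB gene past the threshold, the member with the highest mean of a role group with none past it, both genes of each pair, and up to 6 genes of each regulator list past the threshold with the largest change. The remaining RAB, regulator and marker genes named in the text were chosen after their values were seen. The limma fit was tested on simulated data. Alternatives were quantile normalization, centring on the array median, a trended robust prior, a replicate block, filters on dim genes, other treatments of probe sets, and leaving out arrays.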

Additional observations from a re-analysis of the deposited data

Results flagged for a closer look

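In 4 of 118 groups of 4 arrays, 59 RAB genes in L-GMPs and in GMPs, 1 array stood apart from the other 3 by more than Dixon's 95% critical value for the gap over the range. Chance flags about 1 in 20 groups, or about 6 here. None of these genes passed the threshold between L-GMPs and GMPs. Rab31, a RAB of early endosomes, had 9.76 in L-GMP replicate C and 9.97 to 10.01 on the other L-GMP arrays. Rab9b had 2.76 in L-GMP replicate B and 2.56 to 2.57 on the others, all below the lower quartile of the arrays. Rab6a, a Golgi RAB, had 8.29 in GMP replicate A and 8.77 to 8.82 on the other GMP arrays. Rab3d, a RAB of secretory granules, had 7.72 in GMP replicate D and 7.87 to 7.90 on the others.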

How the results depend on the processing

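None of the 12 RAB genes past the threshold changed direction under the alternatives in which it was tested, up to 17. Of the 47 others 15 changed direction under at least 1, all with a change of at most 0.13 in size, and 1 of the 22 regulators past the threshold did so, Tbc1d9b, for the mean of its probe sets. Centring on the array median moved the genes higher to 2161 (870 before), the RAB genes higher to 9 (5 before), the regulators higher to 12 (5 before) and the regulators lower to 8 (17 before). With both GMP replicate D and L-GMP replicate B left out, 2 RAB genes and 2 regulators were higher and 7 regulators lower. For the mean of the probe sets 6 RAB genes were higher, with Rab27a and Rab35 added and Rab36 lost. The RAB genes lower then numbered 10, with Rab11a, Rab2b and Rab34 added. Without the dimmest 50% of genes, 2 RAB genes were lower, since that filter removed 5 of the 7 that fell, and 9 regulators were higher. With 1 array left out, genes higher ranged from 514 to 942 and lower from 868 to 1446, RAB genes higher from 1 to 5 and lower from 6 to 8, and regulators higher from 0 to 7 and lower from 5 to 14. Apart from the genes that a filter took out of the fit, the cause of these moves was not tested.

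With the replicate letter as a replicate block, 3 RAB genes were higher and 7 lower, and 0 regulators were higher. The labels do not say what the letters stand for. Deviations of same-lettered arrays correlated at -0.07 to 0.11, and whether they share a batch was not tested. Signal over background limits Rab27b and Rab17, whose L-GMP means are below the lower quartile of the arrays, and the 5 RAB genes that are dim in both groups. It also limits Rab4a, whose second probe set had an L-GMP mean below that level and whose brightest was near it in L-GMP replicates C and D. The second probe set of Rab38 was near that level in L-GMPs too.

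The direction turned for 8 RAB genes that follow the naming rule and did not pass. Centring gave 0.01 for Rab2b, 0.14 for Rab9, 0.12 for Rab2a and 0.09 for Rab33a. Quantile normalization gave 0.03 for Rab2b, 0.09 for Rab2b minus Rab2a and 0.04 for Rab1b minus Rab1a. The mean of the probe sets gave 0.01 for Rab2a and -0.00 for Rab40c minus Rab40b. With both GMP replicate D and L-GMP replicate B left out, Rab9b was at -0.02, Rab5c at -0.04 and Rab9 at 0.04. With 1 array left out, the change ranged from -0.04 to 0.04 for Rab9b, -0.22 to 0.00 for Rab2b, -0.03 to 0.11 for Rab5c, -0.07 to 0.07 for Rab9, -0.06 to 0.12 for Rab6a, -0.07 to 0.04 for Rab2a, -0.11 to 0.02 for Rab33a and -0.03 to 0.05 for Rab40b.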
